A study of Mus musculus with 6 samples.

Results

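The inhibitory receptors of myeloid cells and the CD47 axis were examined through 9 genes, Cd200r1, Cd200r4, Sirpa, Cd47, Lair1, Cd300a, Pilra, Havcr2 and Ptpn6, in bone marrow monocytes (BMDM) and brainstem microglia (BSM) of the mouse. The genes were found by their symbols, and all 9 were listed among the 35237 genes of an expression table from Cufflinks, in which FPKM are fragments scaled to transcript length and to sequenced fragments, and among the 36536 genes of a table from ALEXA-Seq, a separate quantification of the same libraries. RNA-Seq was performed on 3 libraries of BMDM, sorted as CD11b+ CD45high CD115+ Ly6G- cells of the bone marrow, and 3 libraries of BSM, sorted as CD11b+ CD45low CD115low Ly6G- cells of the brain, all from C57BL/6 mice with no treatment named at 6 weeks of age. Each library came from the pooled cells of several mice and from an independently made set. By the labels and the study's RNA table replicate 1 was male and replicates 2 and 3 were female in both groups. The study's main text speaks of male mice. The comparison addressed how monocytes of the marrow and resident microglia differ in the receptors that restrain them.

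Most of these receptors carry a short tyrosine motif in their cytoplasmic tail, the ITIM, which on phosphorylation by Src family kinases recruits the tyrosine phosphatase SHP-1, encoded by Ptpn6, and thereby dampens signals from activating receptors. CD47, a surface protein of most cells, binds SIRPalpha on phagocytes and is known as a signal against engulfment. CD200R1 receives CD200, which neurons display in the healthy brain, and acts through DOK adaptors in place of a phosphatase, whereas Cd200r4 encodes a relative known to pair with the activating adaptor DAP12 in place of carrying an inhibitory tail. LAIR1 binds collagens and C1q, CD300a binds phospholipids exposed on dying cells, and PILRalpha binds O-glycosylated proteins. TIM-3, encoded by Havcr2, has no classical ITIM and signals through the adaptor BAT3.

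The libraries carried the defining markers of their labels. Of the microglia markers, P2ry12 had an FPKM of 0.0311 to 0.287 in BMDM and 129.6 to 209 in BSM, and Tmem119 had 0.0232 to 0.0910 and 11.9 to 23.7. The summed FPKM of 10 monocyte markers was 1886 to 3450.2 in BMDM and 6.28 to 7.53 in BSM. Sall1 was listed at 0 in every BMDM library and Ly6c2 in every BSM library. Itgam, which encodes the sort marker CD11b, had an FPKM of 132, 109 and 124 in BMDM replicates 1 to 3. In BSM replicates 1 to 3 Itgam had 176, 0 and 100, so that a listed 0 need not mean that a gene is silent. Markers of granulocytes (60.6 to 513 against 0 to 0.0940) and of erythroid cells (19.0 to 119 against 0 to 0.330) were found in BMDM and were highest in BMDM replicate 2, where Mpo was 181 and S100a9 was 130. Of the 6 astrocyte markers Gfap was at 0 in all libraries, and their sum of 5.32 to 9.54 in BSM, against 0.259 to 0.397 in BMDM, came mainly from Slc1a3. The sums were 7.06 to 12.8 in BMDM and 1.78 to 2.13 in BSM for oligodendrocytes, 2.37 to 4.06 and 1.04 to 2.80 for endothelial cells, 0.661 to 8.86 and 0.317 to 0.527 for lymphocytes, 1.38 to 2.58 and 0.544 to 4.17 for perivascular macrophages, and at most 0.0887 and 0.249 for neurons. BSM replicate 1, which had the lowest RNA concentration and integrity in the study's RNA table, listed 11237 genes above 0, fewer than the 14599 to 16977 of the other libraries. Summed FPKM over all genes was 163199 to 194184 in BMDM and 68288 to 75021 in BSM, a ratio of group means of 2.50. The study reports the mapped reads of each library, but neither table holds whole reads, so the reads behind a single value are not given.

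Of the 9 genes, Havcr2, Lair1 and Sirpa were higher in BSM, and Cd47, Cd300a and Ptpn6 were higher in BMDM. Pilra did not pass the test, and Cd200r1 and Cd200r4 did not reach the minimum of an FPKM of 3 in any library. The test was limma on log2(FPKM + 1) over 6364 genes with Benjamini-Hochberg adjustment and a threshold of 0.05, and 7 of the 9 genes were among those tested. In this fit 45.3% of all tested genes were called higher in BMDM, against 3 of the 7, and 9.22% were called higher in BSM, against 3 of the 7. The median log2 fold change of BMDM over BSM was 0.58 for the 7 genes and 0.81 for all tested genes, so that FPKM were shifted towards BMDM as a whole, and the change relative to this shift is given below for each gene. After quantile normalization, which removes the shift, 21.7% of all genes were called higher in BMDM (1378 genes, against 2883 without it) and 19.3% higher in BSM (1227 genes, against 587), while the same 6 of the 7 genes were called in the same directions. The ALEXA-Seq values of the 6 were tested likewise, where the share of all genes called was 37.1% towards BMDM and 10.9% towards BSM, and all 6 were called in the direction they had in FPKM. The FPKM of BMDM and BSM did not overlap for any of the 7 tested genes, where 66.8% of all tested genes did not overlap. Under the minimum, Cd200r4 did not overlap either, and Cd200r1 did. In bulk RNA a lower value from fewer cells that express a gene and from less RNA per cell cannot be told apart.

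**Figure D1:**
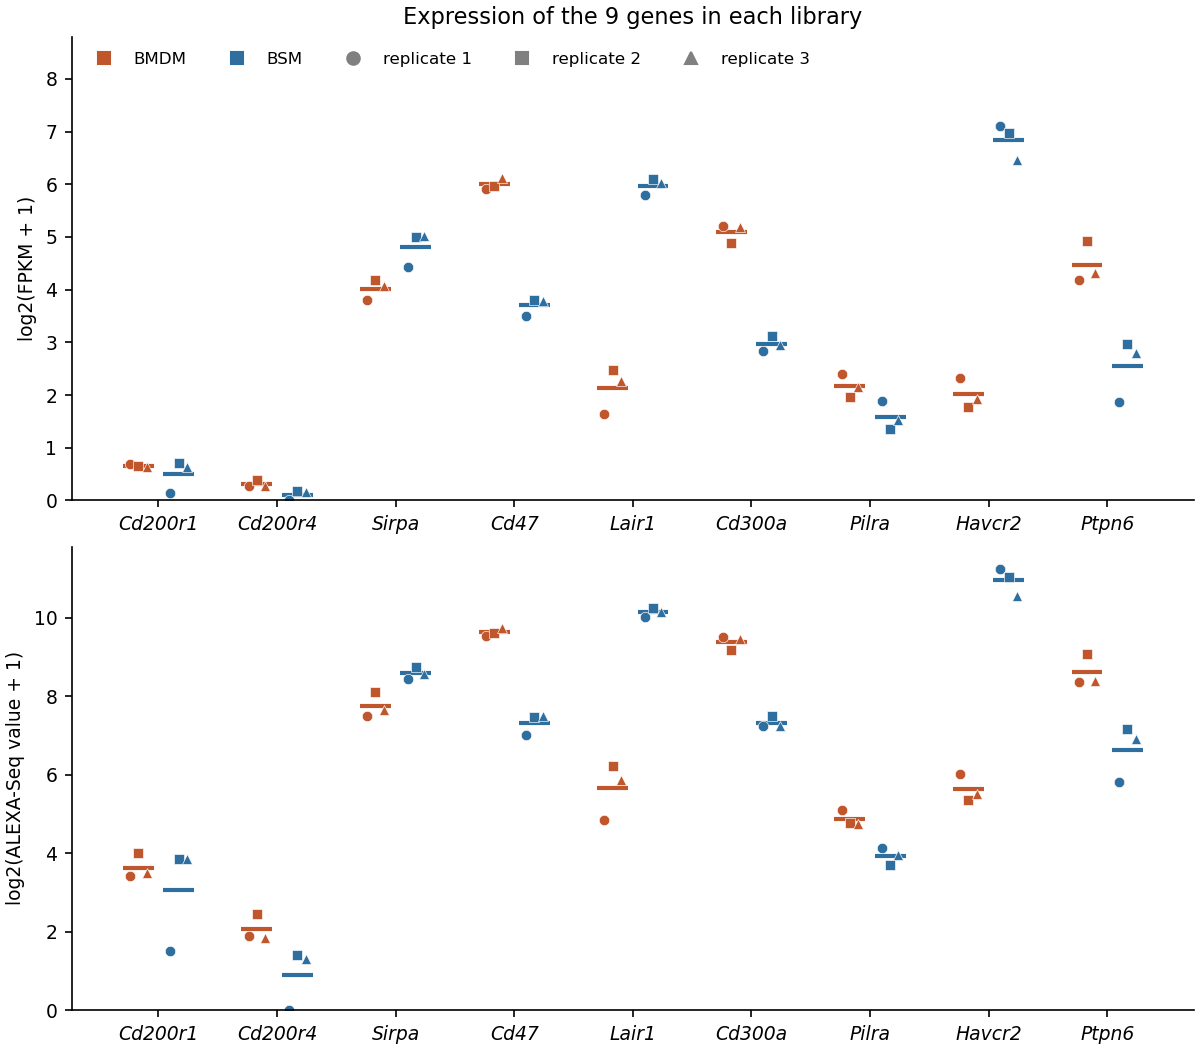
Expression of the 9 genes in the 3 BMDM and 3 BSM libraries, as log2(FPKM + 1) above and as log2(ALEXA-Seq value + 1) below, with each point a library, the shape giving the replicate and the bar the group mean. Havcr2 and Lair1 lie far higher in BSM, Cd47, Cd300a and Ptpn6 lie higher in BMDM, and the points of Cd200r1 overlap.

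The promoters of the pair with the largest difference towards BSM, Havcr2 and Lair1, and of the pair with the largest difference towards BMDM, Cd47 and Cd300a, are shown because these 4 genes carry the contrast between the cell types. RefSeq promoters of build GRCm38.p6, from 250 bases before to 50 bases after the gene start, were matched by symbol for 7 of the 9 genes. Capitals mark matches on either strand to the core of the PU.1 motif (GAGGAA), to the C/EBP motif (TTGCNNAA) and to the RUNX motif (TGTGGT), factors known for their roles in myeloid cells.
Havcr2 promoter, chr11:46454681-46454980, plus strand: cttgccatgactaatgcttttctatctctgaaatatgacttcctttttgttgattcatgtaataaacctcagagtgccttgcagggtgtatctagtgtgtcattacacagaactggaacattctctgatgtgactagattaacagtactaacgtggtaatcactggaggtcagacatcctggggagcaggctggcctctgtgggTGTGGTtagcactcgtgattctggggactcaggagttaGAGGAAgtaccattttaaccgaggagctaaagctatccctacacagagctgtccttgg
Lair1 promoter, chr7:4063155-4063454, minus strand: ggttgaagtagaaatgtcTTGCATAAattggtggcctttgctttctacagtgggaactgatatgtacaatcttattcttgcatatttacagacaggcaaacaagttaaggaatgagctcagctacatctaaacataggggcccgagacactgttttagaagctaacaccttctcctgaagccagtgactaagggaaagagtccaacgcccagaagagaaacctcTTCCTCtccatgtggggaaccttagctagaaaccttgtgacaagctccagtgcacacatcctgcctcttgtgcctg
Cd47 promoter, chr16:49855404-49855703, plus strand: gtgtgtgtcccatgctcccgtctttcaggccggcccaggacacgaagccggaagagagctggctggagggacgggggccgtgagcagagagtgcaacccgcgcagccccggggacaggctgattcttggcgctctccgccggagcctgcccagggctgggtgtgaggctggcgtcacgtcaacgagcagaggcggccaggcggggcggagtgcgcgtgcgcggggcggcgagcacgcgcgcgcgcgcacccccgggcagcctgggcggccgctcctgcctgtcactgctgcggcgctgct
Cd300a promoter, chr11:114889791-114890090, plus strand: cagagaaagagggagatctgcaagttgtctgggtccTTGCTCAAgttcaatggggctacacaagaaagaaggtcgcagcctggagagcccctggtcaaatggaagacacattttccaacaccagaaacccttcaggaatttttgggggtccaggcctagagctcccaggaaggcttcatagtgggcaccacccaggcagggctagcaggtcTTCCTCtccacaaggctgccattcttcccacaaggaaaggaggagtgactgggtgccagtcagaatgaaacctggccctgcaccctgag
These letters occur in 28.3% (PU.1), 10.8% (C/EBP) and 16.8% (RUNX) of 32815 promoters of the same length. The PU.1 letters begin at -8 in Havcr2, -26 in Lair1 and -39 in Cd300a, counted from the gene start, and so are found on both sides of the contrast. The C/EBP letters begin at -232 in Lair1 and -214 in Cd300a, and the RUNX letters at -46 in Havcr2. None of the 3 was found in the window of Cd47 or of Ptpn6. Pilra, which was not called, held the PU.1 letters at -211, the C/EBP letters at -35 and the RUNX letters at -50. Cd200r4, under the FPKM minimum, held the C/EBP letters at -35. The Cd47 window had a GC content of 74.0%, against 45.3% for both Havcr2 and Lair1 and 54.7% for Cd300a. A match is a description of the letters and not evidence of a bound site.

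Cd47, the ligand of the axis, was 5.25-fold higher in BMDM. Cd47 (mm9, chr16:49855731-49915123) had an FPKM of 59.5, 61.9 and 68.8 in BMDM replicates 1 to 3 and of 10.4, 13.01 and 12.8 in BSM replicates 1 to 3. Every BMDM library lay above every BSM library, and replicates of a cell type lay close together. The means were 63.4 ± 4.84 (SD, n = 3) and 12.1 ± 1.49, with a log2 fold change of 2.30 (SE 0.22, 95% confidence interval 1.81 to 2.80, limma adjusted p = 0.000109), or 1.50 above the median of all genes. In the ALEXA-Seq values the log2 fold change of Cd47 was 2.30 (limma adjusted p = 0.000231). Under the scaling that reduced it most, to an equal sum of FPKM in every library, Cd47 was still called higher in BMDM with a log2 fold change of 1.04 (limma adjusted p = 0.00604).

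Sirpa, which encodes the receptor of CD47 on phagocytes and recruits SHP-1, differed the other way and by less. Sirpa (mm9, chr2:129418571-129457964) had an FPKM of 12.9, 17.2 and 15.8 in BMDM and of 20.5, 31.0 and 31.3 in BSM. The lowest BSM library, replicate 1, lay above the highest BMDM library by a small margin, and the other BSM libraries lay well above. The means were 15.3 ± 2.18 and 27.6 ± 6.16 (SD, n = 3), a 1.80-fold higher level in BSM, with a log2 fold change of BMDM over BSM of -0.79 (SE 0.26, 95% confidence interval -1.39 to -0.20, limma adjusted p = 0.0317), or -1.60 relative to the median of all genes. Quantile normalization gave -1.54 (limma adjusted p = 0.00237) and the ALEXA-Seq values gave -0.83 (limma adjusted p = 0.0219). The call of Sirpa was lost without BMDM replicate 1 (limma adjusted p = 0.0938), BMDM replicate 3 (0.0831), BSM replicate 2 (0.105) or BSM replicate 3 (0.103) and with no FPKM minimum (0.0617), with the same direction in each of these fits.

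Receptor and ligand of the axis stood in opposite proportion in the 2 cell types. The ratio of Sirpa to Cd47 FPKM within a library, which no scaling of the library can change, was 0.217, 0.278 and 0.230 in BMDM and 1.98, 2.38 and 2.44 in BSM. Cd47 exceeded Sirpa in each BMDM library and Sirpa exceeded Cd47 in each BSM library. On the log2 scale the means were -2.06 ± 0.19 in BMDM and 1.17 ± 0.17 in BSM (SD, n = 3), a 9.39-fold higher ratio in BSM (exact two-sided permutation test, p = 0.1, the smallest that 3 against 3 libraries can give, and 0.1 after Benjamini-Hochberg adjustment over 3 ratios). The ALEXA-Seq values gave an 8.86-fold higher ratio in BSM (exact permutation p = 0.1).

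Havcr2 (TIM-3), a receptor for galectin-9, HMGB1, phosphatidylserine and CEACAM1, showed the largest difference of the 9 genes and was the most abundant of them in BSM. Havcr2 (mm9, chr11:46268437-46294757) had an FPKM of 4.01, 2.42 and 2.82 in BMDM and of 137, 125 and 87.3 in BSM. The groups were far apart, and BSM replicate 3 lay below the other BSM libraries. The means were 3.08 ± 0.828 and 116 ± 25.8 (SD, n = 3), a 37.7-fold higher level in BSM, with a log2 fold change of -4.84 (SE 0.27, 95% confidence interval -5.47 to -4.21, limma adjusted p = 9.59e-06), or -5.64 relative to the median of all genes. Among the 6364 tested genes Havcr2 ranked 54, 57 and 76 by FPKM in the BSM libraries and 3685, 5365 and 4932 in the BMDM libraries. The ALEXA-Seq values gave a log2 fold change of -5.32 (limma adjusted p = 3.79e-05).

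Lair1, an ITIM receptor for collagens and C1q, followed with a 17.7-fold higher level in BSM. Lair1 (mm9, chr7:3959661-4014776) had an FPKM of 2.12, 4.58 and 3.82 in BMDM and of 54.7, 67.3 and 64.1 in BSM. The BSM libraries lay close together and far above the BMDM libraries, of which replicate 1 was the lowest. The means were 3.50 ± 1.26 and 62.1 ± 6.58 (SD, n = 3), with a log2 fold change of -3.84 (SE 0.28, 95% confidence interval -4.49 to -3.20, limma adjusted p = 3.31e-05), or -4.65 relative to the median. Lair1 ranked 159, 115 and 118 among the tested genes in BSM and 5099, 3998 and 4198 in BMDM. The ALEXA-Seq values gave -4.48 (limma adjusted p = 0.000151).

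Cd300a, an ITIM receptor for phosphatidylserine and phosphatidylethanolamine, was 4.88-fold higher in BMDM. Cd300a (mm9, chr11:114751355-114765968) had an FPKM of 36.2, 28.6 and 35.5 in BMDM and of 6.10, 7.73 and 6.71 in BSM. The groups were well separated, and the lowest BMDM value was that of replicate 2, the library with the most granulocyte and erythroid transcripts, whose part in this value was not tested. The means were 33.4 ± 4.20 and 6.85 ± 0.824 (SD, n = 3), with a log2 fold change of 2.13 (SE 0.22, 95% confidence interval 1.61 to 2.65, limma adjusted p = 0.000207), or 1.32 above the median. The ALEXA-Seq values gave 2.05 (limma adjusted p = 0.000266). Cd300a and Lair1, both receptors of the ITIM class, thus lay on opposite sides of the comparison.

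Pilra, an ITIM receptor whose activating counterparts are encoded by Pilrb1 and Pilrb2, did not pass the test. Pilra (mm9, chr5:138263180-138277496) had an FPKM of 4.26, 2.90 and 3.46 in BMDM and of 2.68, 1.57 and 1.89 in BSM. The groups did not overlap, but the lowest BMDM value and the highest BSM value were close. The log2 fold change was 0.58 (SE 0.26, 95% confidence interval -0.02 to 1.18, limma adjusted p = 0.0896), below the median of all genes by 0.22, and its sign changed after quantile normalization, to -0.17 (limma adjusted p = 0.685). Without BSM replicate 1 the log2 fold change was 0.73 and was called (limma adjusted p = 0.0249). The value of Pilra is uncertain in itself, since 50.2% of the bases of its longest transcript have a near-identical copy in transcripts of other genes (23.9% in Pilrb1 or Pilrb2). The span of the gene Zcwpw1 also overlaps an exon of Pilra on the other strand. Pilrb1 (0.342 to 0.671) and Pilrb2 (0.846 to 1.87) were listed at low FPKM in BMDM and at 0 in every BSM library.

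Both CD200 receptor genes were near the floor of the table. Cd200r1 (mm9, chr16:44765849-44795091) had an FPKM of 0.607, 0.564 and 0.552 in BMDM and of 0.104, 0.634 and 0.547 in BSM. The groups overlapped, and BSM replicate 1 alone was low. Without that library the ratio of mean FPKM of BMDM to BSM was 0.973, against 1.34 with it. In a fit with no FPKM minimum the log2 fold change of Cd200r1 was 0.16 (95% confidence interval -0.34 to 0.66, limma adjusted p = 0.617), so that no difference was detectable at these levels. Cd200r4 (mm9, chr16:44811898-44915953), the DAP12-paired relative, had an FPKM of 0.206, 0.305 and 0.204 in BMDM and of 0, 0.135 and 0.112 in BSM. The groups did not overlap, and BSM replicate 1 was again the lowest. In the fit with no minimum its log2 fold change was 0.20 (95% confidence interval 0.03 to 0.36, limma adjusted p = 0.103), on a scale where the added 1 is larger than the values themselves.

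Ptpn6, the SHP-1 phosphatase that SIRPalpha, LAIR1, CD300a and PILRalpha recruit, was 4.23-fold higher in BMDM. Ptpn6 (mm9, chr6:124670735-124683584) had an FPKM of 17.1, 29.4 and 18.9 in BMDM and of 2.66, 6.84 and 5.96 in BSM. BMDM replicate 2 was the highest library and BSM replicate 1 the lowest, and the groups did not overlap. The means were 21.8 ± 6.62 and 5.15 ± 2.20 (SD, n = 3), with a log2 fold change of 1.93 (SE 0.36, 95% confidence interval 1.10 to 2.76, limma adjusted p = 0.00314), or 1.12 above the median. Without BMDM replicate 2, in which granulocyte markers were highest, the log2 fold change was 1.70 (limma adjusted p = 0.0172), and without BSM replicate 1 it was 1.59 (limma adjusted p = 0.00241). The ALEXA-Seq values gave 1.98 (limma adjusted p = 0.00728), while scaling to an equal sum of FPKM gave 0.75 and ended the call (limma adjusted p = 0.128). The span of the gene model Gm20531 overlaps an exon of Ptpn6 on the other strand. Of the bases of the longest Ptpn6 transcript, 8.71% match transcripts of this gene model. Whether this match is the overlap itself or a second copy was not tested.

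**Figure D2:**
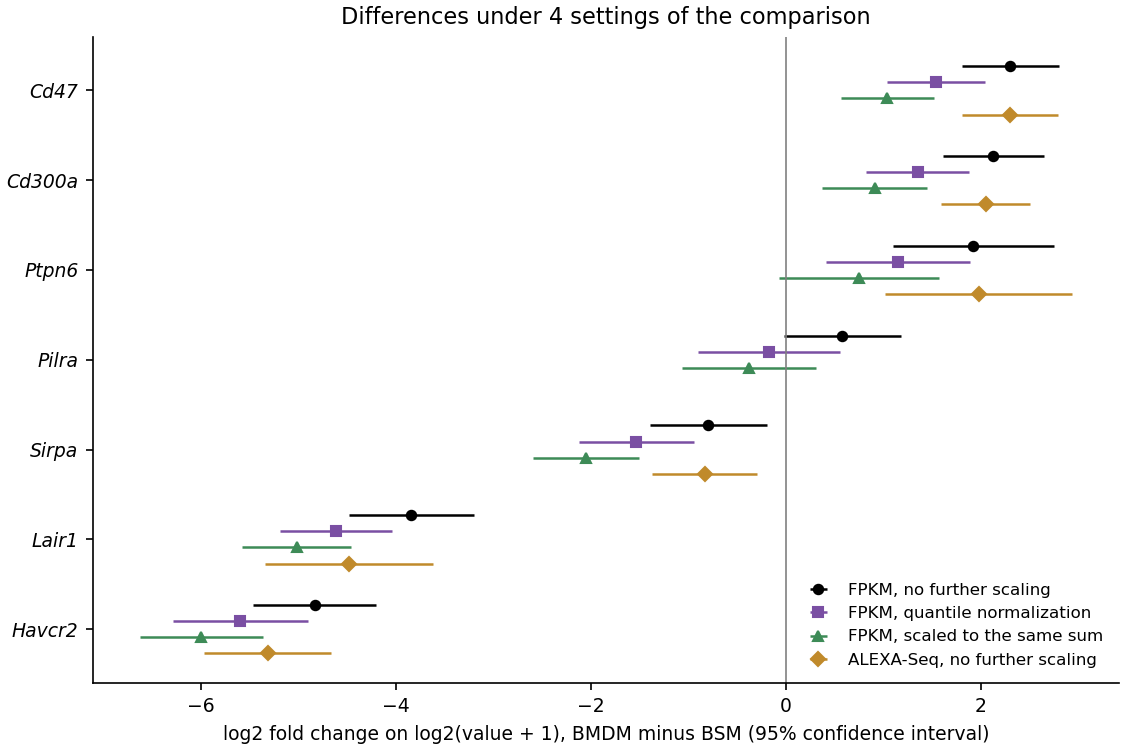
Log2 fold change of BMDM over BSM for the 7 tested genes, on log2(value + 1), with 95% confidence intervals from limma, for FPKM as deposited, quantile normalized or set to an equal sum, and for the ALEXA-Seq values. Havcr2, Lair1 and Sirpa stay below 0 and Cd47 and Cd300a above 0 in each setting shown, the interval of Ptpn6 reaches below 0 after scaling to an equal sum, and Pilra, which has no ALEXA-Seq value among the tested genes, changes sign with the scaling.

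The phosphatase was also compared with other phosphatases of inhibitory signalling, within each library. SHP-2, encoded by Ptpn11, shares the ITIM as a docking site, and SHIP-1, encoded by Inpp5d, is a lipid phosphatase of some inhibitory receptors. The ratio of Ptpn6 to Ptpn11 was 6.35, 8.47 and 5.05 in BMDM and 4.14, 4.80 and 4.39 in BSM. Ptpn6 exceeded Ptpn11 in every library, and the ratio was 1.46-fold higher in BMDM (exact two-sided permutation test, p = 0.1, and 0.1 after adjustment). The ratio of Ptpn6 to Inpp5d was 3.62, 3.99 and 3.06 in BMDM and 0.050, 0.548 and 0.535 in BSM. Ptpn6 exceeded Inpp5d in each BMDM library and lay below it in each BSM library (exact two-sided permutation test, p = 0.1, and 0.1 after adjustment). BSM replicate 1 stood apart here, since its Inpp5d FPKM was 53.2, against 12.5 and 11.1 in the other BSM libraries and 4.73 to 7.36 in BMDM.

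**Figure D3:**
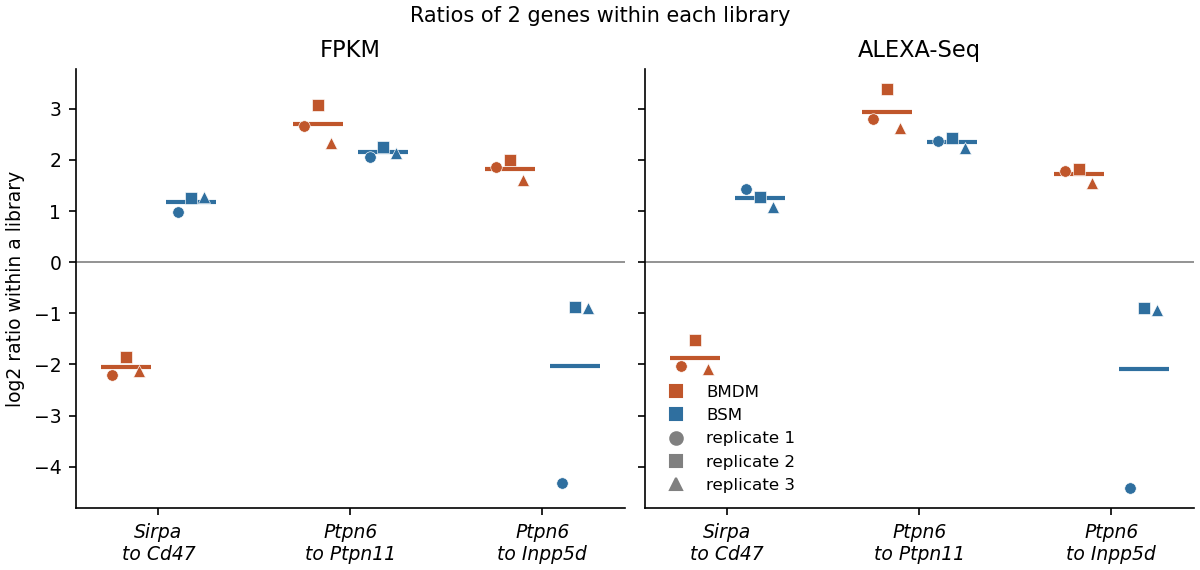
Log2 ratio of the values of 2 genes within each library, from FPKM on the left and from ALEXA-Seq on the right, with each point a library, the shape giving the replicate and the bar the group mean. Sirpa to Cd47 lies below 0 in the 3 BMDM libraries and above 0 in the 3 BSM libraries, Ptpn6 to Ptpn11 lies above 0 in all 6, and BSM replicate 1 lies far below the other libraries for Ptpn6 to Inpp5d.

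The order of the 9 genes within a cell type differed between BMDM and BSM. In BMDM the mean FPKM ran downwards from Cd47 through Cd300a, Ptpn6 and Sirpa to Pilra, Lair1, Havcr2, Cd200r1 and Cd200r4. Cd47 lay above Cd300a in each library, the ranges of Cd300a and Ptpn6 and of Ptpn6 and Sirpa overlapped, and Pilra, Lair1 and Havcr2, at means of 3.54, 3.50 and 3.08, could not be ordered. In BSM the order was Havcr2, Lair1, Sirpa, Cd47, Cd300a, Ptpn6, Pilra, Cd200r1 and Cd200r4. From Havcr2 to Cd300a the ranges of neighbours did not overlap, nor did those of Pilra and Cd200r1, while those of Cd300a and Ptpn6, of Ptpn6 and Pilra, and of Cd200r1 and Cd200r4 did.

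As shares of their own summed FPKM, the 9 genes were made up differently in the 2 cell types. Their sum was 145 ± 6.97 (SD, n = 3) in BMDM and 232 ± 21.2 in BSM, although the sum over all genes was lower in BSM. In BMDM, Cd47 held 43.7% ± 2.03 of this sum, Cd300a 23.1% ± 3.57, Ptpn6 15.0% ± 4.23 and Sirpa 10.5% ± 1.10. In BSM, Havcr2 held 49.7% ± 8.53, Lair1 26.8% ± 3.52, Sirpa 11.9% ± 3.05 and Cd47 5.22% ± 0.834. Sirpa held a like share in both, with ranges of 9.43% to 11.6% and 8.76% to 14.8% that overlapped. These shares are descriptions and were not tested.

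**Figure D4:**
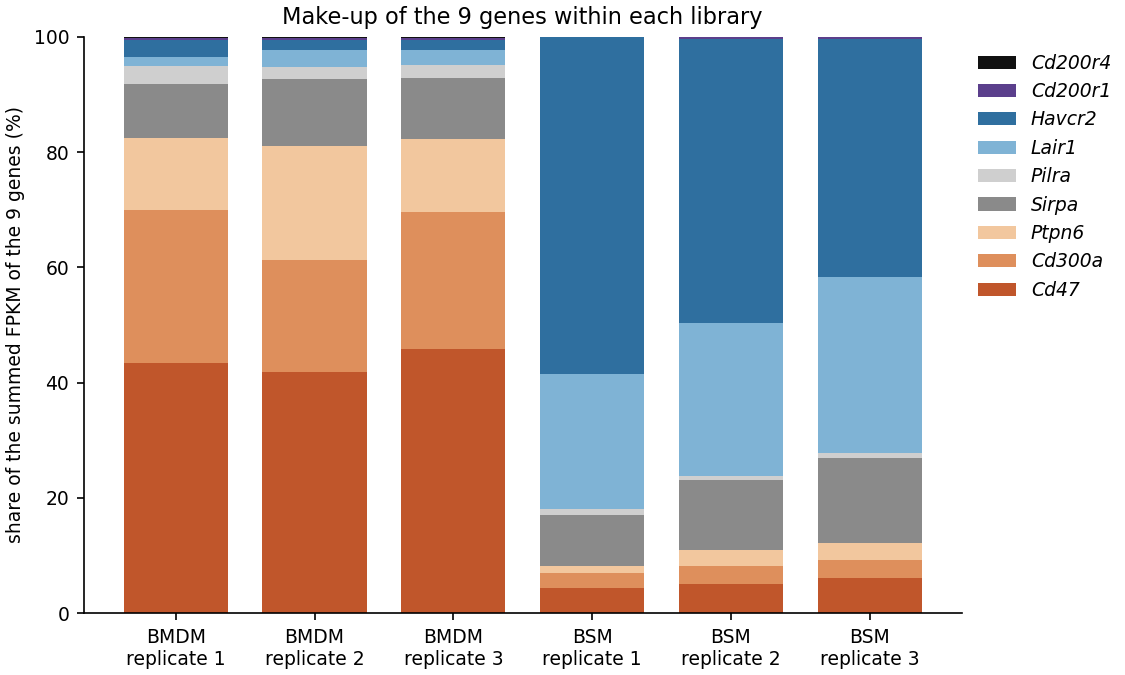
Share of each of the 9 genes in their summed FPKM (%), as stacked bars for the 3 BMDM and the 3 BSM libraries. Cd47, Cd300a and Ptpn6 fill most of each BMDM bar and Havcr2 and Lair1 most of each BSM bar, with Havcr2 between 41.4% and 58.5% in BSM.

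Other inhibitory receptors of leukocytes were called in both directions. Of 29 in this list 27 were in the table, 15 were tested, 10 were called in favour of BMDM, 5 in favour of BSM and none of the 15 missed the threshold, and after quantile normalization 6 and 5 were called. Over all tested genes 45.3% were called for BMDM and 9.22% for BSM, and 21.7% and 19.3% after quantile normalization. Their median log2 fold change was 1.48, against 0.81 for all tested genes. In BMDM the largest differences were those of Clec12a, a lectin receptor for uric acid crystals (mean FPKM 46.6 against 0.313, log2 5.20, limma adjusted p = 5.26e-06), Btla, a receptor for the TNF receptor family member HVEM (20.2 against 0.647, log2 3.70, limma adjusted p = 1.94e-05), and Lilrb3, also known as PIR-B (20.2 against 0.861, log2 3.60, limma adjusted p = 0.000128). In BSM they were those of Siglech (86.2 against 0.104 in BMDM, log2 -6.30, limma adjusted p = 2.25e-06), Cd33 (22.9 against 2.56, log2 -2.73, limma adjusted p = 9.59e-05) and Lag3, which was listed at 0 in every BMDM library and had a mean FPKM of 2.57 ± 1.04 in BSM (limma adjusted p = 0.00311). Lag3 reached the FPKM minimum only in BSM replicate 2 (3.64). Both Siglech and Cd33 belong to the Siglec family, and Siglech is known to signal through DAP12, without an ITIM.

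Few activating partners and adaptors reached the FPKM minimum. Of 16 in the list 13 were in the table and 5 were tested, of which 4 were called for BMDM and 1 for BSM, and the same numbers were called after quantile normalization. Over all tested genes 45.3% were called for BMDM and 9.22% for BSM, and 21.7% and 19.3% after quantile normalization. The median log2 fold change was 1.93 for the 5 genes against 0.81 for all. Cd300lb, an activating relative of Cd300a, had a mean FPKM of 11.8 in BMDM and 0.0522 in BSM (log2 3.51, limma adjusted p = 0.000141), and Pira2, the activating counterpart of PIR-B, had 4.48 and 0.0275 (log2 2.40, limma adjusted p = 0.000283). The adaptor gene Fcer1g had 290.2 and 79.1 (log2 1.93, limma adjusted p = 0.00255). Trem2, a receptor for lipids and lipoproteins that signals through DAP12, had 0.400 in BMDM and 4.48 in BSM (log2 -1.95, limma adjusted p = 0.000971). Cd300lb and Fcer1g were highest in BMDM replicate 2, at 18.9 and 367, the library with the most granulocyte transcripts, and the part of that difference in the values was not tested.

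Ligands of the 9 genes were mostly under the FPKM minimum in these sorted cells. Of 19 in the list 18 were in the table and 6 were tested, of which 1 was called for BMDM, 3 were called for BSM and 2 were not called, with the same numbers called after quantile normalization. Over all tested genes 45.3% were called for BMDM and 9.22% for BSM, and 21.7% and 19.3% after quantile normalization. The median log2 fold change of the 6 was -2.06, against 0.81 for all tested genes. The 3 higher in BSM were the chains of 1 complex, C1q, a ligand of LAIR1. The other tested ligands had log2 fold changes of 0.64 to 2.50, so that the median rested on this complex. Mean FPKM in BMDM and BSM were 0.297 and 134 for C1qb (log2 -6.69, limma adjusted p = 9.31e-06), 0.372 and 61.0 for C1qc (log2 -5.44, limma adjusted p = 5.43e-05) and 0.0309 and 27.7 for C1qa (log2 -4.75, limma adjusted p = 1.22e-05). Lair1 and the chains of its ligand C1q were thus both higher in BSM. Ceacam1, a ligand of TIM-3 that itself carries ITIMs, was higher in BMDM (29.4 against 4.64, log2 2.50, limma adjusted p = 0.000773), opposite to Havcr2. Lgals9, which encodes galectin-9, had a mean FPKM of 7.60 in BMDM and 4.76 in BSM and was not called (limma adjusted p = 0.172), and Cd200 was at most 0.0232 in any library.

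The number of signalling partners called depended on the scaling of the libraries, as it did over all genes. All 30 in the list were in the table and 22 were tested, of which 14 were called for BMDM, 2 for BSM and 6 were not called, whereas after quantile normalization 4 and 4 were called. Over all tested genes 45.3% were called for BMDM and 9.22% for BSM, and 21.7% and 19.3% after quantile normalization, so that the shares of this list were near those of all genes for BSM and, after that step, for both directions. The median log2 fold change of the 22 was 1.01 without that step, against 0.81 for all. In BMDM the largest differences were those of Ptpn22, a phosphatase of Src family kinases (12.5 against 0.353, log2 3.33, limma adjusted p = 5.27e-05), Pstpip1, an adaptor of the cytoskeleton (9.20 against 0.0734, log2 3.19, limma adjusted p = 0.000122), and Fgr, a Src family kinase (9.93 against 0.370, log2 3.01, limma adjusted p = 8.76e-05). In BSM the called genes were Inpp5d (SHIP-1) and Pag1, an anchor of the kinase CSK (0.456 in BMDM against 2.37, log2 -1.20, limma adjusted p = 0.0114). Pag1 reached the FPKM minimum only in BSM replicate 3 (3.01). The log2 fold change of Inpp5d was -1.56 (limma adjusted p = 0.0425), and without BSM replicate 1 the ratio of means of BSM to BMDM was 1.94, against 4.21 with it (log2 -0.87, limma adjusted p = 0.0130). The call of Inpp5d was lost in 3 of the 6 fits that left out a library, with an adjusted p of up to 0.135 (limma), and that of Pag1 in 1 of the 6 (without BSM replicate 3, limma adjusted p = 0.0601).

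The genes of engulfment that act with or against CD47 were called, without further scaling, at shares near those of all tested genes. All 12 were in the table and 9 were tested, of which 4 were called for BMDM, 1 for BSM and 4 were not called, with 3 and 2 called after quantile normalization. Over all tested genes the shares were 45.3% for BMDM and 9.22% for BSM, and 21.7% and 19.3% after quantile normalization, and the median log2 fold change was 1.01 for the 9 against 0.81 for all. Cd24a, whose product is another surface signal against engulfment, had a mean FPKM of 78.8 in BMDM and 0.0288 in BSM (log2 6.10, limma adjusted p = 2.38e-05), with values of 46.0, 137 and 53.2 in BMDM, the highest again in replicate 2. Myh9, a non-muscle myosin heavy chain (58.1 against 9.55, log2 2.40, limma adjusted p = 0.000677), and Itgb2, the beta chain of the complement receptor integrins (91.8 against 31.0, log2 1.54, limma adjusted p = 0.000772), were also higher in BMDM. Itgav, the alpha chain of vitronectin receptors that bind bridging molecules on dying cells, was higher in BSM (10.6 in BMDM against 39.2, log2 -1.83, limma adjusted p = 0.00154). Of the 23 named genes of these lists, all 23 had the same direction under upper quartile, quantile and equal sum scaling. Fcer1g and Itgb2 lost the call under the last. These genes had been picked for the largest differences in the same data, so their kept direction is no independent support.

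**Figure D5:**
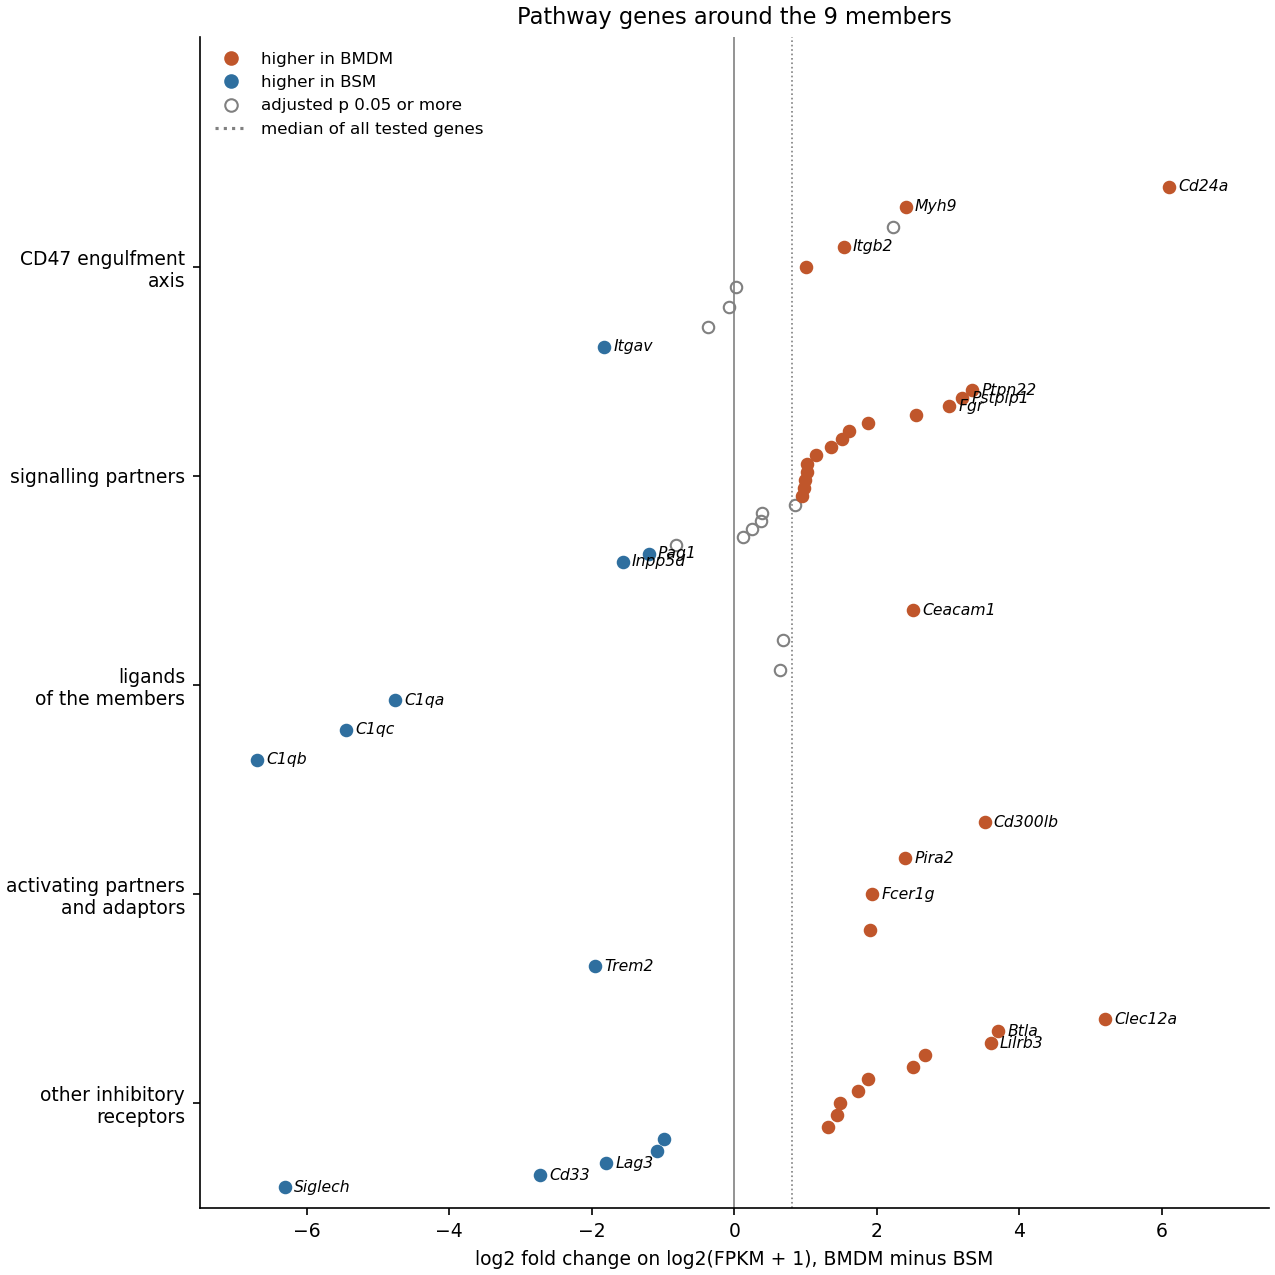
Log2 fold change of BMDM over BSM on log2(FPKM + 1) for the tested genes of the 5 lists, each point a gene, filled where the limma adjusted p was under 0.05, with the named genes written beside their points and the dotted line at the median of all tested genes, 0.81. The 3 C1q genes and Siglech lie farthest towards BSM, and Cd24a and Clec12a farthest towards BMDM.

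For each tested gene of the 9, the pair of genes with the most similar pattern was taken by the Euclidean distance over the 6 libraries between log2(FPKM + 1) values centred on the mean of each gene. For Havcr2 the gene given here is Bhlhe41, a transcription factor (distance 0.55). Lair1 had Mgat4a (0.35) and Lhfpl2 (0.53), and Sirpa had Tmem173, which encodes STING (0.11), and Pik3ap1 (0.23). On the BMDM side Cd47 had Uhrf1bp1l (0.18) and the gene ENSMUSG00000086882 (0.19), Cd300a had Agtpbp1 (0.19) and the same gene ENSMUSG00000086882 (0.21), and Ptpn6 had Prdx1 (0.12) and Bub3 (0.13). Pilra had Spata6 (0.15) and Klhl5 (0.19). With 6 libraries in 2 groups the distance mainly reflects the size of the difference between the groups.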

How the data were processed

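RNA-Seq was analysed for 3 BMDM and 3 BSM libraries, grouped by the sample labels. The submitters' processing notes name CASAVA 1.7.0, Bowtie 0.12.7, TopHat 1.3.1, Cufflinks 1.0.3 and the build mm9. The authors deposited FPKM per gene from Cufflinks, and a second table with an ALEXA-Seq expression signal per gene, deposited on a linear scale whose normalization is not given in the sources used here. Libraries were amplified from small amounts of RNA, and strand use in counting is not given in the sources used here. Starts in the FPKM table were read as counted from 0, since 7538 of 17762 genes then span as many bases as in GENCODE M21, against 265 if counted from 1, and positions are given counted from 1.

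FPKM were tested with limma 3.58.1 (R 4.3.3) on log2(FPKM + 1), with a mean-variance trend and Benjamini-Hochberg adjustment, for the 6364 genes that reached 3 FPKM in 1 or more libraries, the minimum in the study's methods. A gene could meet this minimum through the cell type where it was higher alone, as Lag3 and Pag1 did. Fold changes on this scale understate the change of low genes. The 6364 genes with the highest ALEXA-Seq signal were tested likewise, and because both tables come from the same libraries the second is not independent. Ratios were tested by an exact permutation test (scipy 1.17.1), whose smallest p is 0.1. Python 3.11.15, pandas 2.3.3, numpy 2.4.6 and matplotlib 3.10.9 were used. Near-identical copies are blastn 2.17.0 matches of at least 100 bases and 95% identity between GENCODE M21 transcripts, whose build differs from mm9, so that they serve only as properties of genes matched by symbol. The fit was also tested on simulated data. The p-values measure the spread between independently made pools.

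The 9 genes, the lists and the naming rule were chosen with earlier results of these data known. Named are the 9 genes, the 3 called genes with the largest log2 fold change in each direction of each list, and the 2 nearest genes of each tested gene, of which 1 is not reported here. Ptpn11 and Inpp5d are named for the ratios. Pilrb1, Pilrb2, Lgals9 and Cd200, as counterparts or ligands of the 9 genes, and Itgam, as the gene of a sort marker, were added after their values were seen. The fits were repeated with 0.1 as the pseudocount, a minimum of 1 FPKM or no minimum, 3 scalings, no trend, library quality weights, the replicate block and leaving out each library. Ratios of Cd200r1 to Cd200r4, Pilra to Pilrb1 and Cd300a to Cd300lf were not tested, since a gene of each was at 0 in a library.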

Additional observations from a re-analysis of the deposited data

How the results depend on the processing

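The count of the 9 genes called was 6 in FPKM and stayed between 5 and 7 under every alternative run, and in the ALEXA-Seq values it was 6 and stayed between 5 and 6 when each library was left out. Havcr2, Lair1, Cd47 and Cd300a kept direction and call under all 15 alternatives in FPKM and all 9 in ALEXA-Seq. Pilra reversed to -0.033 with upper quartile scaling, -0.17 with quantile normalization and -0.38 with an equal sum, and was called with library quality weights (0.76, limma adjusted p = 0.00132). Sirpa in ALEXA-Seq lost its call in 4 of the 6 fits that left out a library (limma adjusted p 0.0592 to 0.0807), namely those without BMDM replicate 1 or 3 or BSM replicate 2 or 3. With an equal sum of FPKM, 968 of all genes were called for BMDM and 1585 for BSM, and with upper quartile scaling 1379 and 1051, against 2883 and 587 without scaling. In ALEXA-Seq 2359 and 691 were called, and 1439 and 1349 after quantile normalization. Deviations of same-numbered libraries correlated at -0.02, -0.01 and 0.13, and not every library correlated best with its own number. With so few libraries these values cannot decide whether the replicate numbers pair the samples. With the replicate block 6 of the 9 genes were called in either table, and over all genes 2905 were called for BMDM and 566 for BSM in FPKM. The log2 ratios within a library kept their direction in ALEXA-Seq and without each library. The reads behind single values are not given, and no limit from the depth of the libraries was worked out for Cd200r1 and Cd200r4.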
